A study of Mus musculus with 6 samples.

Results

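Ribosome biogenesis and RNA polymerase I are represented here by 38 genes, taken as a given list of gene symbols and found at 38 of the 22601 loci that carried a symbol. Each symbol had 1 locus, and none of the 38 was lost to the filter on low values. The levels were measured by RNA sequencing of the mouse thymoma cell line 427 (427.1.86) in 6 libraries, 1 for each condition. The study addressed what EICD, the intracellular domain of the membrane protease epithin/PRSS14, does to gene expression. All 6 libraries came from this line. In the 427 DMSO and 427 PMA libraries the cells carried the empty pSUPER vector and were kept without serum for 2 h before 2 h of treatment, with DMSO as the vehicle or with PMA at 1 µM. PMA is a phorbol ester that activates protein kinase C. The SPPL2b KD DMSO and SPPL2b KD PMA libraries came from cells with a knockdown of SPPL2b, the protease that frees EICD from the membrane, with the same serum withdrawal and the same DMSO or PMA. The SPPL2b KD GFP and SPPL2b KD GFP plus EICD libraries came from knockdown cells transfected with a GFP vector alone or together with Flag-tagged EICD and sorted for GFP a day later, and the sources used here mention neither serum withdrawal nor PMA for them. The labels call the knockdown an siRNA, while the study's methods describe an shRNA in pSUPER under stable selection and name 1 single-cell clone, 427(SP2bKD)-10, for the transfected cells.

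Ribosomes are assembled in the nucleolus. RNA polymerase I transcribes the long precursor of the ribosomal RNAs, small nucleolar ribonucleoproteins (snoRNPs) guide its methylation and pseudouridylation, and a sequence of assembly factors cuts, folds and exports the small and the large subunit. Growth signals and the transcription factor Myc are known to raise many of these genes together in dividing cells. In what follows the genes are ordered by these roles.

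Values are FPKM, fragments per kilobase of transcript and 1000000 mapped fragments, so that levels can also be set side by side between genes. With 1 library per condition no difference could be set against a replicate spread, no test was made, and a difference between libraries is not shown to belong to the condition. Each gene was called higher or lower when its FPKM changed by more than 1.5-fold, and the share of all symbol-carrying loci reaching 1 FPKM in either library that passed the same fold is given beside the counts. The depth was estimated from the FPKM values at 25900000 to 30400000 fragments per library. At that depth the counting error of a log2 ratio had a median of 0.03 to 0.04 over the 38 genes and was at most 0.08, with counting error only. It was computed with the longest annotated coding transcript of each gene, so it is too small where shorter transcripts prevail. In each library the 10 loci of highest FPKM held between 85.6% and 94.2% of the FPKM sum, so that scaling to that sum follows a few loci. By FPKM the targeted gene went against its label. Sppl2b stood at 9.90 and 6.86 FPKM in the 427 DMSO and PMA libraries and at 13.4, 9.37, 11.4 and 13.2 FPKM in the 4 libraries labelled SPPL2b KD, which are therefore called KD-labelled below. The study checked the knockdown by other measures. It selected its clones by real-time PCR of SPPL2b mRNA and reported less PMA-induced EICD in them. St14, which encodes epithin/PRSS14, stood at 615 FPKM in the GFP plus EICD library and between 69.6 and 105 FPKM in the other 5. The transfected EICD is a part of the epithin/PRSS14 coding sequence, so this value does not separate the construct from the cells' own St14. Of 8 thymic epithelial markers measured, 7 were at 1 FPKM or more in every library, with Krt14 at 1355 to 3819.9 FPKM, while Psmb11, a cortical thymic epithelial marker, was at or near 0 throughout. The 9 thymocyte and leukocyte markers measured summed to at most 0.304 FPKM in any library, and the 7 fibroblast and endothelial markers to at most 2.21 FPKM.

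All 38 genes were expressed in all 6 libraries. The lowest value was 10.6 FPKM, for Polr1e in the 427 DMSO library, and the highest was 1381 FPKM, for Npm1 in the KD-labelled PMA library. The median over the 38 genes was 35.7 FPKM in 427 DMSO, 46.8 in 427 PMA, 34.7 in KD-labelled DMSO, 49.8 in KD-labelled PMA, 43.2 in GFP and 38.1 in GFP plus EICD. Both DMSO libraries thus had the lowest medians and both PMA libraries the highest. For 21 of the 38 genes the highest of the 6 libraries was KD-labelled PMA and for 8 it was 427 PMA. For the others it was GFP for 5, GFP plus EICD for 3 and 427 DMSO for 1. The lowest was KD-labelled DMSO for 18, 427 DMSO for 11, GFP plus EICD for 8 and 427 PMA for 1. The highest value of a gene exceeded its lowest by 1.33-fold to 2.35-fold, with a median of 1.66-fold. The narrowest range was that of Polr1a and the widest that of Ppan.

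**Figure D1:**
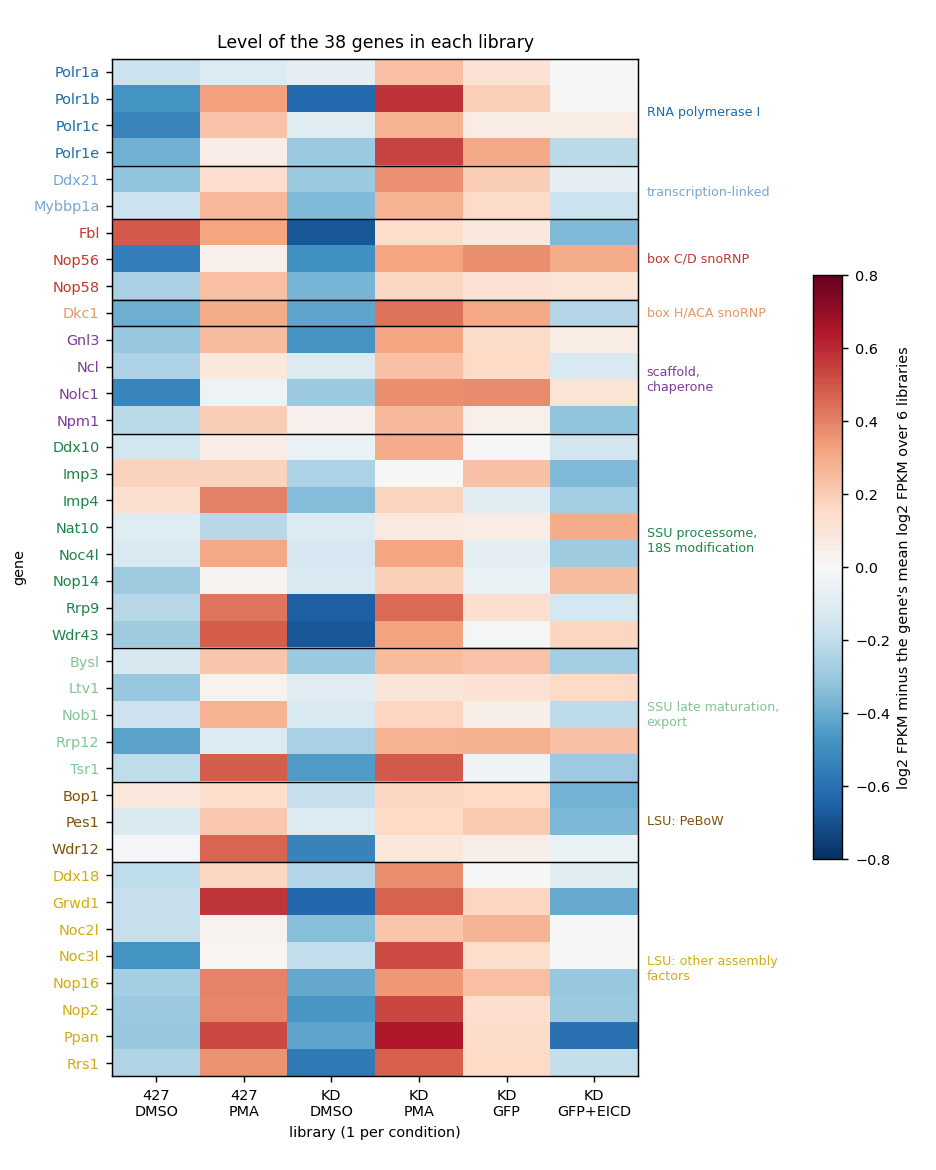
Level of each of the 38 genes (rows, grouped and coloured by role) in each of the 6 libraries (columns), as log2 FPKM minus the mean log2 FPKM of that gene over the 6 libraries (SSU, small subunit; LSU, large subunit; KD, labelled SPPL2b KD). The DMSO columns are mostly blue and the PMA columns mostly red, and Fbl departs from this with its highest value, 112 FPKM, in 427 DMSO.

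PMA was compared with DMSO in 427 cells and, separately, in KD-labelled cells, and these comparisons share no library. In 427 cells 12 of the 38 were past 1.5-fold higher with PMA and 0 were lower, beside 8.1% of 10643 loci that were higher and 14.4% that were lower. In KD-labelled cells 20 of the 38 were higher and 0 lower, beside 7.89% and 16.5% of 10624 loci. The median log2 ratio of the 38 genes was 0.44 in 427 cells, where the median of all loci was -0.12, and 0.61 in KD-labelled cells, where it was -0.15. The ratio was above 0 for 35 of 38 genes in 427 cells, the others being Fbl, Nat10 and Imp3, and for 38 of 38 in KD-labelled cells. Over the loci 37.2% and 35.6% had ratios above 0. Among loci with an FPKM of 10 or more, a level that all 38 genes reach, 7.38% and 7.55% were more than 1.5-fold higher. Of the same loci 7.87% and 10.4% were more than 1.5-fold lower. Scaling each library to the same FPKM sum lowered the 427 median to 0.19, beside -0.36 for all loci. It left 31 of 38 genes above 0 and 0 past 1.5-fold. The KD-labelled cells then had a median of 0.64, beside -0.12 for all loci, and 21 genes higher. The share of loci past 1.5-fold under this scaling is not given here.

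Of the 4 RNA polymerase I subunits 2 were past 1.5-fold higher in each line. Polr1b, the second largest subunit, was at 21.6 FPKM in 427 DMSO and 37.7 in 427 PMA, at 19.6 and 44.9 in KD-labelled DMSO and PMA, and at 34.4 and 30.3 in GFP and GFP plus EICD. Both DMSO libraries were the lowest for it, and its PMA log2 ratios of 0.80 and 1.20 put it second among the 38 genes in 427 cells and first in KD-labelled cells. Polr1c, a subunit that RNA polymerase I shares with RNA polymerase III, was at 72.9 and 123 FPKM in 427 DMSO and PMA, 98.1 and 127 in KD-labelled DMSO and PMA, and 109.6 and 109 in GFP and GFP plus EICD. Its log2 ratio was 0.75 in 427 cells and 0.38 in KD-labelled cells, where the DMSO library was already high. Polr1e, a subunit that takes part in initiation, went from 10.6 to 14.3 FPKM in 427 cells and from 11.2 to 20.1 FPKM in KD-labelled cells, log2 ratios of 0.44 and 0.84. Polr1a, the largest catalytic subunit, had log2 ratios of 0.06 and 0.31, neither past 1.5-fold. Of the nucleolar proteins tied to transcription, the RNA helicase Ddx21 went from 74.0 to 102 FPKM and from 75.3 to 119 FPKM, and Mybbp1a from 145 to 196 and from 128 to 198. Both passed 1.5-fold in KD-labelled cells and not in 427 cells.

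**Figure D2:**
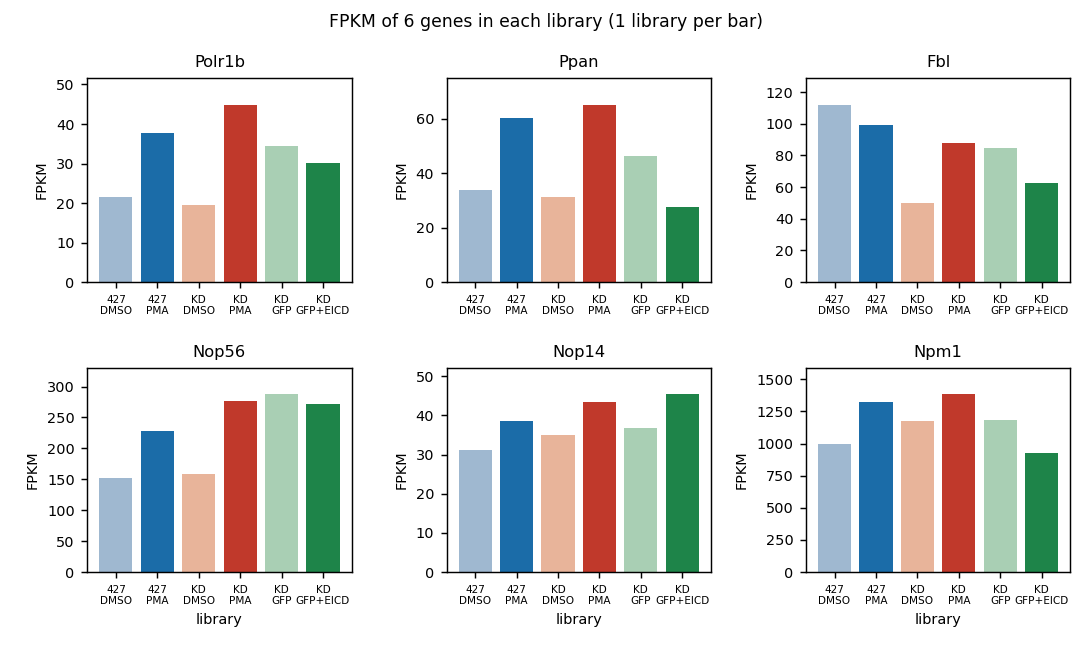
FPKM (vertical axis, from 0) of Polr1b, Ppan, Fbl, Nop56, Nop14 and Npm1 in each of the 6 libraries, 1 library per bar and no replicates, chosen after their values were seen because they hold the extremes named in the text. Polr1b and Ppan have their 2 highest bars in the PMA libraries, Fbl has its lowest bar at 49.8 FPKM in KD-labelled DMSO, and Nop14 its highest at 45.3 FPKM in GFP plus EICD.

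The snoRNP core proteins were mostly higher with PMA, with 1 exception. Nop56, which scaffolds the box C/D snoRNPs that methylate ribosomal RNA, was at 152 and 228 FPKM in 427 DMSO and PMA and at 158 and 276 FPKM in KD-labelled DMSO and PMA. That is a log2 ratio of 0.59 in 427 cells, only just past 1.5-fold, and 0.80 in KD-labelled cells. Its partner Nop58 went from 130.5 to 184 FPKM and from 120.4 to 175 FPKM and stayed below 1.5-fold in both. Fbl, the methyltransferase fibrillarin, went from 112 to 99.2 FPKM in 427 cells and from 49.8 to 88.1 FPKM in KD-labelled cells. Its KD-labelled DMSO value was the lowest of all 6 and its 427 DMSO value the highest, so its log2 ratios of -0.18 and 0.82 have opposite signs. Dkc1, the pseudouridine synthase of the box H/ACA snoRNPs, was at 58.2 and 94.0 FPKM in the 427 libraries and 57.0 and 103 FPKM in the KD-labelled ones, a log2 ratio of 0.69 and of 0.86. Among nucleolar scaffold proteins and chaperones, Gnl3 (nucleostemin) and Nolc1 passed 1.5-fold in KD-labelled cells, with log2 ratios of 0.79 and 0.67, and had 0.55 and 0.48 in 427 cells. The abundant Ncl (nucleolin) and Npm1 (nucleophosmin) passed in neither line, with log2 ratios between 0.23 and 0.41. Npm1 has processed copies in the genome among which reads can be divided, so its level is less certain.

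Of the 8 genes of the small subunit processome and of 18S RNA modification, Rrp9 and Wdr43 were past 1.5-fold in both lines, and the other 6 in neither. Rrp9, a protein of the U3 snoRNP, was at 20.7 and 32.5 FPKM in 427 DMSO and PMA and at 15.4 and 33.1 FPKM in KD-labelled DMSO and PMA. The corresponding log2 ratios were 0.65 and 1.11. Wdr43, which joins the processome early, was at 50.3 and 85.5 FPKM in the 427 libraries and at 38.2 and 76.2 FPKM in the KD-labelled ones, log2 ratios of 0.77 and 1.00. Nat10, which acetylates 18S RNA, was nearly level across the 4 libraries, at 13.1 and 12.04 FPKM and at 13.04 and 14.8 FPKM. Imp3 was at 33.4 FPKM with DMSO and with PMA in 427 cells. Of the 5 factors of late small subunit maturation and export only Tsr1, a GTPase-like factor of the pre-40S particle, passed 1.5-fold, in both lines, from 57.9 to 93.1 FPKM and from 48.6 to 93.4 FPKM. Nob1, the nuclease that makes the last cut of 18S RNA, had log2 ratios of 0.44 and 0.30.

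Of the 8 large subunit factors outside the PeBoW complex 5 were past 1.5-fold in 427 cells and 7 in KD-labelled cells. Ppan was at 33.9 and 60.1 FPKM in 427 DMSO and PMA, at 31.2 and 65.1 FPKM in KD-labelled DMSO and PMA, and at 46.3 and 27.7 FPKM in GFP and GFP plus EICD. Its log2 PMA ratios were 0.83, the highest of the 38 genes in 427 cells, and 1.06. Grwd1, a chaperone of a ribosomal protein, went from 25.6 to 43.1 FPKM and from 18.8 to 40.3 FPKM, log2 ratios of 0.75 and 1.10. Nop2, which methylates 28S RNA, went from 54.3 to 87.7 FPKM and from 48.4 to 96.9 FPKM, log2 ratios of 0.69 and 1.00. Rrs1, which acts in loading the 5S particle, went from 37.4 to 56.8 FPKM and from 29.8 to 61.5 FPKM, and Nop16 had log2 ratios of 0.67 and 0.76. Noc3l and the helicase Ddx18 passed only in KD-labelled cells, and Noc2l in neither. Within PeBoW, a complex of Pes1, Bop1 and Wdr12 needed for large subunit processing, Wdr12 passed in KD-labelled cells with a log2 ratio of 0.62, and Pes1 and Bop1 had ratios between 0.05 and 0.35.

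Set side by side, 11 of the 38 were past 1.5-fold higher in both lines, 1 in 427 cells alone (Polr1c), 9 in KD-labelled cells alone and 17 in neither. Over 10845 loci 5.53% were past the fold in both lines, and 27.1% had ratios above 0 in both, as did 35 of the 38 genes. The log2 ratio was larger in KD-labelled cells for 33 of 38 genes, against 49.995% of loci, and the median difference was 0.22, against a median of 0.00 over loci. The differences ran from -0.38 for Polr1c to 1.00 for Fbl, and that of Fbl alone exceeded 1.5-fold, 1 of 38 genes against 8.98% of loci. Whether the PMA effect differed between lines was not tested, and Sppl2b FPKM was not lower in the KD-labelled libraries. Across the 38 genes, which are not independent replicates, the ratios of both lines had a Pearson correlation of 0.67 and a Spearman correlation of 0.74, beside 0.62 and 0.75 over loci, and of 0.79 and 0.81 without Fbl. Thymic epithelial markers moved in these libraries in both directions. Of the 7 that could be measured, 4 had ratios above 0 and 3 below 0 in each line. Epcam was at 169 and 299 FPKM and Cdh1 at 123 and 231 FPKM in 427 DMSO and PMA, Epcam at 209 and 322 and Cdh1 at 141 and 236 in KD-labelled DMSO and PMA. Krt18 had log2 ratios of 1.26 in 427 cells and 0.78 in KD-labelled cells, and Krt8 of 0.77 and 0.38. Foxn1, by contrast, had log2 ratios of -0.78 and -0.91, Krt14 of -0.14 and -0.40, and Trp63 of -0.15 and -0.56. The part of these markers in the result was not tested. In bulk RNA, fewer cells of a type and less RNA per cell cannot be told apart.

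**Figure D3:**
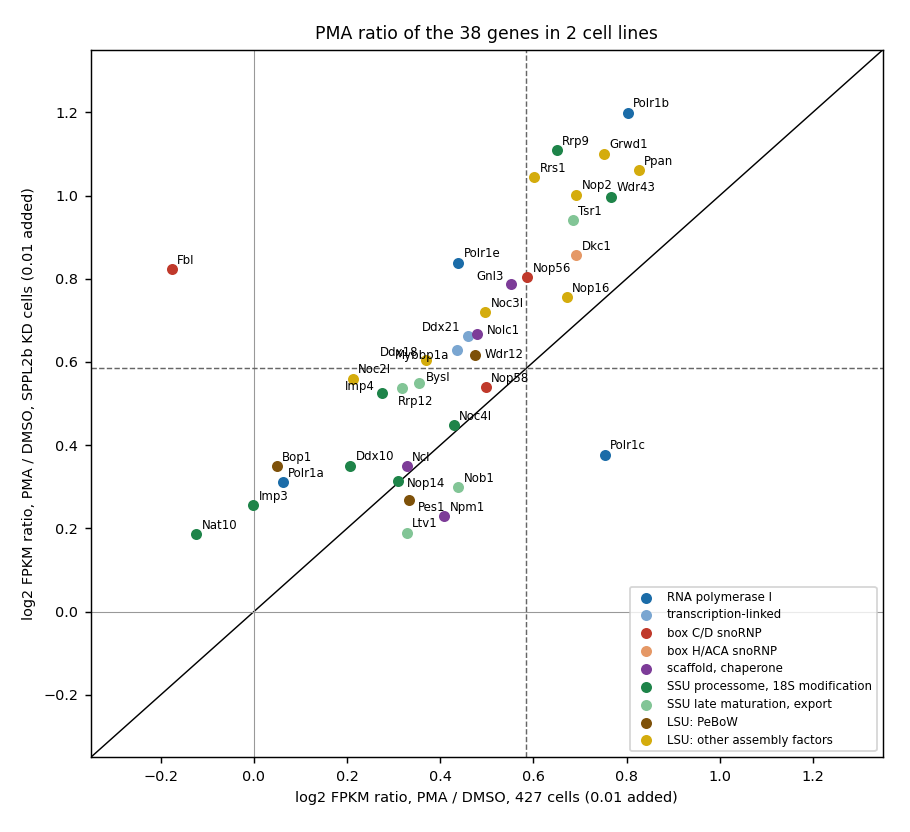
Log2 FPKM ratio of PMA to DMSO in 427 cells (horizontal) and in KD-labelled cells (vertical) for the 38 genes, coloured by role, with the line of equal ratios and dashed lines at 1.5-fold. Of the points 33 lie above the line of equal ratios, and 11 lie past 1.5-fold on both axes.

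Myc, whose targets include many ribosome biogenesis genes, was at 38.1 and 75.7 FPKM in 427 DMSO and PMA, at 33.0 and 79.9 FPKM in KD-labelled DMSO and PMA, at 77.7 FPKM in GFP and at 108 FPKM in GFP plus EICD. It was thus lowest in both DMSO libraries, as the 38 genes were by their median, and highest in the GFP plus EICD library, where their median was the third lowest. Mycn was at 0.05 FPKM or less, and Mycl at 3.42 to 14.6 FPKM. The E-box CACGTG, the sequence to which Myc binds, was searched on both strands in RefSeq windows (GRCm38.p6) from 250 bases before to 50 after the annotated start. A window was at hand for 33 of the 38 genes, and 8 of them (24.2%) held CACGTG: Imp4, Nop2, Grwd1, Ltv1, Pes1, Mybbp1a, Tsr1 and Wdr43. Of all 27025 genes with a window, which were not restricted to genes expressed in these cells, 8.09% held it. TGANTCA, the AP-1 motif, was in 0 of the 33 and in 8.97% of all genes. A match is a description of the sequence and no evidence of binding. In 427 cells the median log2 PMA ratio was 0.56 for the 8 genes with the E-box and 0.46 for the 25 without, and in KD-labelled cells 0.78 and 0.61. Of the 8, 4 were past 1.5-fold in 427 cells and 5 in KD-labelled cells, and of the 25, 7 and 13.

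The windows of the 3 such genes of the plus strand that were past 1.5-fold with PMA in both lines are printed from 100 bases before to 30 bases from the start, in lower case with CACGTG in capitals, to show that its place differs. It begins 60 bases before the start in Nop2, and at base 25 and base 18 of the transcript in Tsr1 and Wdr43.
Nop2, chr6:125131783-125131912, + strand: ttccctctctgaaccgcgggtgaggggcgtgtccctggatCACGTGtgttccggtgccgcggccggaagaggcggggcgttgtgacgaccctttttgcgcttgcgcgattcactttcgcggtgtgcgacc
Tsr1, chr11:74897980-74898109, + strand: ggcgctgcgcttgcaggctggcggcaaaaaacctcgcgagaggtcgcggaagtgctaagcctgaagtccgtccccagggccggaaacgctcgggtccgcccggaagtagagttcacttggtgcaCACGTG
Wdr43, chr17:71616115-71616244, + strand: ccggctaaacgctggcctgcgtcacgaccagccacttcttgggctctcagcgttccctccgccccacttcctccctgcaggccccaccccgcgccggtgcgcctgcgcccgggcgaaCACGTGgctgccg

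A second feature that the list did not use was the hosting of small nucleolar RNA genes. In the annotation (GENCODE M21) 8 of the 38 genes (21.1%) held at least 1 such gene on the same strand within their bounds, against 1.18% of 21951 protein-coding genes. They were Nop56, Nop58, Ncl, Dkc1, Gnl3, Tsr1, Ppan and Wdr43, and Nop56 held 5. The 21951 genes were not restricted to those expressed in these cells. In 427 cells the median log2 PMA ratio was 0.64 for the 8 hosts and 0.42 for the other 30, and in KD-labelled cells 0.83 and 0.55. The library kit selects polyadenylated RNA, so these values are those of the host messengers. Strand-specific counting is not given in the sources used here, and in 4 genes over 200 exon bases lie on the strand opposite to exons of a neighbour, so that reads of both cannot be told apart: Tsr1 with 1240 bases of Srr, Noc2l with 598 of Samd11, Bysl with 361 of Ccnd3 and Imp4 with 209 of Gm28306.

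The libraries labelled SPPL2b KD were compared with 427 cells under the same treatment. With DMSO 0 of the 38 were past 1.5-fold higher and 1 was lower, beside 8.25% and 6.3% of 10706 loci. Among loci with an FPKM of 10 or more the shares were 5.22% and 3.56%. The 1 lower gene of the 38 was Fbl, at 112 FPKM in 427 cells and 49.8 FPKM in KD-labelled cells, a log2 ratio of -1.17. The next lowest were Wdr12, at 23.4 and 16.3 FPKM (log2 ratio -0.53), and Imp4, at 41.4 and 29.7 FPKM (-0.48), and the highest was Polr1c at 0.43. The median was -0.07, with 15 genes above 0 and 23 below, but 0.89 after scaling to the same FPKM sum, which put the median of all loci at 1.01. With PMA 0 of 38 were higher and 0 lower, beside 6.22% of 10518 loci in each direction. Among loci with an FPKM of 10 or more 2.98% were higher and 3.71% lower. The ratios of the 38 genes ran from -0.39 for Wdr12 to 0.51 for Noc3l with a median of 0.07, and Fbl was at -0.17. The PMA comparisons above share these libraries. Cell markers differed as well. Of 7 thymic epithelial markers 5 were above 0 and 2 below with DMSO, and 4 above and 3 below with PMA. Krt8 had log2 ratios of 1.96 with DMSO and 1.56 with PMA, and Krt14 of -0.27 and -0.53. Pdgfrb, at 0.445 FPKM in 427 DMSO and 1.52 FPKM in KD-labelled DMSO, had 1.75 and 2.00. The part of these markers in the result was not tested here either.

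GFP-transfected, sorted KD-labelled cells were compared with untransfected KD-labelled cells with DMSO as the untransfected libraries nearest to them by label. With GFP 14 of the 38 were past 1.5-fold higher and 0 lower, beside 8.01% and 12% of 10687 loci. Among loci with an FPKM of 10 or more the shares were 6.23% and 6.67%. The median log2 ratio of the 38 genes was 0.50, against -0.08 over the loci, and 38 of 38 genes were above 0. The largest were Nop56, from 158 to 287 FPKM (0.86), Polr1b (0.82), Grwd1 (0.80), Rrp9 (0.79), Fbl (0.76), Dkc1 (0.73), Rrs1 (0.72) and Nolc1 (0.67). Nolc1, a chaperone that shuttles snoRNPs, was as high in GFP as with PMA, at 85.9 FPKM beside 85.5 in KD-labelled PMA and 53.8 in KD-labelled DMSO. The smallest were Npm1 (0.01), Ddx10 (0.05), Noc4l (0.06) and Nop14 (0.07). Transfection, GFP, sorting and serum withdrawal, which the sources give for the DMSO library alone, differ together between these libraries and cannot be told apart. The labels do not name the clone of the untransfected KD-labelled cells, so a difference of clone cannot be told apart either. Cell markers moved in the same comparison, with log2 ratios of 1.10 for Krt14, 1.04 for Trp63, -1.12 for Krt8 and -0.86 for Krt18, and Pdgfrb was at 1.52 FPKM in KD-labelled DMSO and 0.0380 FPKM in GFP. Their part in the result was not tested. This comparison shares the KD-labelled DMSO library with the PMA comparison in those cells.

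EICD was compared with GFP alone in the sorted cells. With EICD 0 of the 38 were past 1.5-fold higher and 1 was lower, beside 10.5% and 2.6% of 10682 loci. Among loci with an FPKM of 10 or more the shares were 6.11% and 2.05%. The 1 lower gene of the 38 was Ppan, at 46.3 FPKM in GFP and 27.7 FPKM in GFP plus EICD, a log2 ratio of -0.74. Imp3 lay on the threshold, at 34.5 and 23.0 FPKM (-0.58), and was counted as lower when 0.01 was added to both libraries, which made the count 2. Then came Grwd1 (-0.58) and Pes1 (-0.57). The median was -0.26, against 0.07 over the loci, and 34 of 38 genes were below 0, against 41.7% of loci. A median below 0 was not particular to the 38 genes. It was -0.20 for cytosolic and -0.21 for mitochondrial ribosomal proteins, -0.15 for exosome genes and -0.05 for RNA polymerase III genes. After setting the locus median to 0, 7 of 38 were more than 1.5-fold lower, and after scaling to the same upper quartile 4. The locus shares above belong to the unscaled values, and the shares under these scalings are not given here. The 4 genes above 0 were Nop14 (36.6 and 45.3 FPKM, log2 ratio 0.31), Nat10 (14.7 and 17.2 FPKM, 0.23), Wdr43 (60.6 and 68.7 FPKM, 0.18) and Ltv1 (0.04). Of 7 thymic epithelial markers 2 were above 0 and 5 below with EICD. Krt8 had a log2 ratio of -1.02, Krt14 of -0.64 and Trp63 of 0.33. The part of these markers in the EICD result was not tested.

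By role, the median with EICD was -0.54 for Dkc1 alone and for the PeBoW complex, and -0.08 for the box C/D proteins. In the PeBoW complex Pes1 went from 105 to 71.0 FPKM and Bop1 from 74.3 to 51.3 FPKM, while Wdr12 was at 24.3 and 22.7 FPKM. The 8 other large subunit factors were all below 0 with a median of -0.39. Dkc1 went from 94.7 to 65.0 FPKM (-0.54), whereas Nop56, at 287 and 272 FPKM, and Nop58, at 169 and 168 FPKM, were nearly level, and Fbl went from 84.6 to 62.5 FPKM (-0.44). Of the RNA polymerase I subunits, Polr1e went from 17.1 to 11.9 FPKM (-0.52), Polr1b and Polr1a had ratios of -0.19 and -0.12, and Polr1c was level. Across the 38 genes the EICD ratios and the PMA ratios, which share no library, had Pearson correlations of -0.11 in 427 cells and -0.28 in KD-labelled cells, beside -0.06 over loci in each case. The Spearman correlations were -0.09 and -0.26, beside -0.23 and -0.24 over loci. Genes are not independent, and these values are descriptions. By its median of 38.1 FPKM the GFP plus EICD library thus lay between GFP, at 43.2 FPKM, and KD-labelled DMSO, at 34.7 FPKM.

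**Figure D4:**
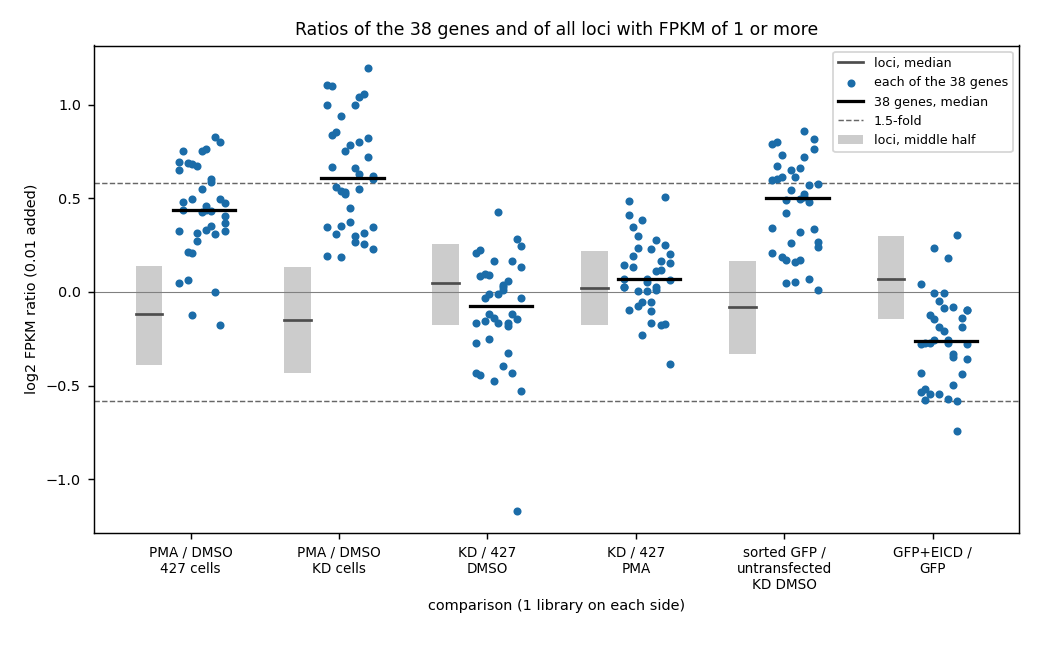
Log2 FPKM ratio (vertical) of each of the 38 genes (points, with a black line at their median) in the 6 comparisons (horizontal, 1 library on each side), beside the median (grey line) and middle 50% (grey box) of loci reaching 1 FPKM in at least 1 library of the pair. The medians of the 38 genes are 0.44, 0.61, -0.07, 0.07, 0.50 and -0.26 from left to right.

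Other genes of the pathway were taken from lists outside the 38, with 108 measured genes for small subunit, large subunit, snoRNP and RNA polymerase I factors together. In 427 cells 22 of 108 (20.4%) were more than 1.5-fold higher with PMA and 0 lower, beside 8.1% and 14.4% of loci, with a median log2 ratio of 0.35. In KD-labelled cells 39 (36.1%) were higher and 1 lower, beside 7.89% and 16.5% of loci, with a median of 0.42. The same locus shares stand beside the counts of each list that follows. Among 40 other small subunit factors 9 and 12 were higher, the largest being Nol10 in 427 cells (0.87) and Wdr3 in KD-labelled cells (1.00). Among 42 other large subunit factors 8 and 17 were higher, led by Eif6 (0.84) in 427 cells and Nip7 (1.10) in KD-labelled cells. Of 14 other snoRNP factors 5 and 8 were higher, among them Shq1 (0.92 in 427 cells) and Gar1 (1.05 in KD-labelled cells). Of 12 other RNA polymerase I genes 0 were called in 427 cells, and in KD-labelled cells 2 were higher, Cd3eap (0.97) and Taf1d (0.66), and 1 lower, Ttf1 (-0.82). Ttf1, the termination factor, was at 18.5 FPKM in KD-labelled DMSO and between 9.20 and 11.6 FPKM in the other 5 libraries. Ubtf, which binds the ribosomal DNA promoter, was level at 54.0 to 62.1 FPKM.

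With PMA the exosome and RNA polymerase III lists had lower medians than the lists above. The 13 exosome and RNA 3′ processing genes had medians of 0.09 and 0.04, with 1 gene called higher in 427 cells, Mphosph6 (0.85), and 0 in KD-labelled cells. The 17 RNA polymerase III genes had medians of -0.07 and 0.06, with 1 gene called higher in each line, Polr3d (0.68 and 0.74). In the GFP comparison 14 of the 108 pathway genes (13.0%) were higher and 1 lower, beside 8.01% and 12% of loci, with a median of 0.26. With EICD 0 of 108 were higher and 3 (2.78%) lower, a share near the 2.6% of loci, and the median was -0.19 with 85 of 108 below 0. The 3 lower genes were Wbscr22 (-0.69), a methyltransferase of 18S RNA, Wdr18 (-0.65) and Nhp2 (-0.59).

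**Figure D5:**
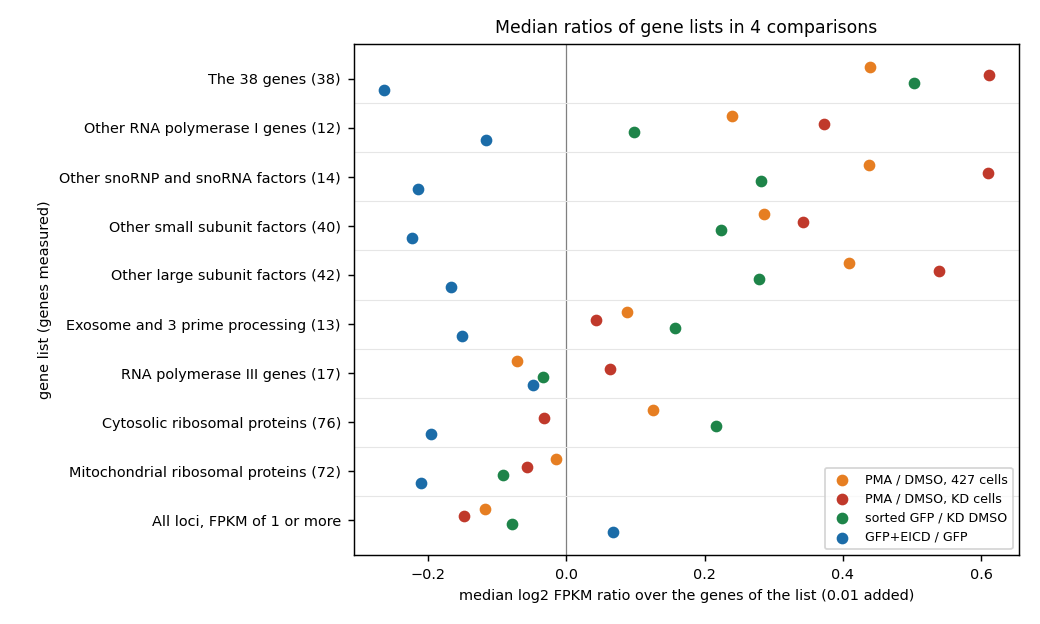
Median log2 FPKM ratio (horizontal) over the genes of each list (rows, with the number of genes measured) in 4 comparisons, each marked by a colour. The 38 genes and the 4 lists of other pathway genes have PMA medians between 0.24 and 0.61, and the exosome and RNA polymerase III lists lie between -0.07 and 0.09.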

How the data were processed

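Total RNA was enriched for polyadenylated RNA and sequenced as paired ends with the TruSeq RNA kit. According to the study, the authors aligned the reads to the mouse genome (GRCm38) and computed FPKM with Cufflinks and Cuffdiff, and they deposited 1 FPKM value per locus and library. The submitters' processing notes name TopHat2 2.1.1, Cufflinks 2.1.1, Cuffdiff 2.1.1 and STAR 2.4.0b. Their gene models include newly assembled isoforms for 12836 genes, 32 of the 38 genes among them, so FPKM can depend on those models. Groups were taken from the sample labels.

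From the deposited FPKM, log2 ratios were computed with Python 3.11.15, NumPy 2.4.6 and pandas 2.3.3, and plots were drawn with matplotlib 3.10.9. The amount added was 0.01 in both libraries, or for EICD in the GFP plus EICD library only. Loci that carried a symbol and reached 1 FPKM in at least 1 library of the pair were used, and a change past 1.5-fold was called. Named genes were those called (the 8 largest where over 12 were) and the 2 largest changes each way. From the other lists, cell markers apart, at most 4 genes each were named by size of change, and Ubtf was added after its values were seen. Cell markers did not follow this rule, and with PMA all 7 measured thymic epithelial markers are given. The genes, roles and lists were chosen with earlier results of these data known. Depth was estimated from FPKM and transcript lengths of 882 genes with a single transcript, and the scripts were checked on simulated data. Alternatives were another amount added, no filter or a minimum of 10, scaling by upper quartile, by sum or by the locus median, summing the loci of a symbol, and a 2-fold call. Promoter windows came from RefSeq and gene bounds from GENCODE M21, where 99.9% of the 21212 loci with a shared identifier lie at the same place. No window was at hand for Bop1, Fbl, Rrp12, Rrs1 and Npm1. No p-value was computed, because each condition has 1 library.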

Additional observations from a re-analysis of the deposited data

How the results depend on the processing

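With 1 library per condition, no library could be left out and nothing bears on the spread between replicates. No paired analysis was possible because each condition has 1 library and the result comes from no test. Of 202 alternative values of medians and counts, 180 stayed within the limits of 0.1 on the log2 scale or 1.5 times a count, 21 moved and 1 changed sign. Adding 1, summing the loci of a symbol and a minimum FPKM of 10, the last chosen after seeing the data, moved none of these. Scaling to an FPKM sum of 1000000 moved most. It gave a median of 0.19 and 0 genes higher for PMA in 427 cells, with the locus median at -0.36. For KD-labelled against 427 cells with DMSO the median was 0.89 in place of -0.07, with the locus median at 1.01. Of the 38 genes 31 were then higher and 0 lower. The same comparison with PMA had a median of 1.31 with 38 higher, and the locus median was 1.26. For EICD the median was -0.44 with 11 lower, and the locus median was -0.11. These counts thus carry a shift shared by all loci. The median difference between the PMA ratios of both lines became 0.50. Setting the locus median to 0 gave medians of 0.55 and 0.75 for PMA in 427 and KD-labelled cells and 7 genes lower with EICD. Without a filter the locus median was 0 in both PMA comparisons, so the member median stood 0.44 and 0.61 above it. Scaling to the same upper quartile made 4 genes lower with EICD. Adding 0.001 to the EICD library only, or 0.01 to both, made it 2. A 2-fold threshold left 0 genes higher with PMA in 427 cells, 6 in KD-labelled cells and 0 in GFP cells, and 0 lower with EICD. The shares of loci called under these alternatives are not given here, so these counts have no share beside them. Of 345 values of single genes 298 stayed within the limits and 47 moved, none with a change of sign.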

Other observations

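The cytosolic ribosomal proteins, the parts that these factors assemble, were near level with PMA by their medians. Of 80 such genes 76 passed the filter, with a median log2 ratio of 0.13 in 427 cells and -0.03 in KD-labelled cells, where 4 and 5 were more than 1.5-fold higher and 1 and 6 lower. Over all loci 8.1% and 7.89% were higher and 14.4% and 16.5% lower. With EICD 76 of 76 were below 0, between -0.50 and -0.01 with a median of -0.20, and 0 were past 1.5-fold. Many ribosomal protein genes have processed copies, so their single values are less certain. The 72 mitochondrial ribosomal proteins had medians of -0.01 and -0.06 with PMA and of -0.21 with EICD, where 61 of 72 were below 0.

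Senp3, a nucleolar protease that acts on large subunit factors, was at 61.1, 73.7, 68.4 and 80.8 FPKM in the 4 untransfected libraries and at 480.3 and 379 FPKM in GFP and GFP plus EICD, a log2 ratio of 2.81 between GFP and KD-labelled DMSO. It was named for its value, and the cause was not tested.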
